A study of Sus scrofa with 12 samples.

Results

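The insulin-like growth factor (IGF) system of the sow endometrium was read from 12 libraries of poly(A) RNA, 3 from each of 4 diets. The members were the 10 genes whose name in the deposited table was IGF1, IGF2, IGF1R or IGFBP1 to IGFBP7, out of 20674 genes in all. A total of 9 members had enough reads to be tested, among 15351 genes tested, and IGFBP1 had none.

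The sows were Landrace × Yorkshire animals of matched parity. L − N sows received a low-fiber diet with 3.73% crude fiber, and L + N sows the same diet with 0.05% N-carbamylglutamate (NCG). H − N sows received a high-fiber diet with 7.46% crude fiber, in which soybean bran and beet pulp took the place of part of the corn, and H + N sows that diet with 0.05% NCG. NCG is an analog of N-acetylglutamate, the activator of the first enzyme of the urea cycle, and supports the synthesis of arginine. In every group, the control included, feeding ran for 114 days from breeding and covered gestation. Whole endometrium was taken, which holds epithelium, stroma, vessels and leukocytes, so that fewer cells of a type and less RNA per cell cannot be told apart. Markers of endometrial epithelium, stroma, smooth muscle, endothelium and leukocytes were all detected. Of 7 listed placental markers, PAG2 was not among the genes measured. Of the other 6, 4 were detected (GATA2, GATA3, TFAP2C and ELF5), the last 3 at no more than 2.91 FPKM. CYP19A1 was at 0 counts and HAND1 at no more than 4 counts in any library, and the presence of placenta was not tested. The libraries held 14369781 to 19309724 counted reads. The labels do not give the sow behind each library, so p-values measure the spread between these samples.

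IGF1 and IGF2 are secreted peptides that promote growth and survival of cells. Both signal mainly through IGF1R, a receptor tyrosine kinase that feeds the PI3K-Akt and Ras-MAPK pathways. The binding proteins hold the peptides outside the cell, limit or prolong their access to the receptor, and are cut by proteases that set the peptides free. In the pig, the uterus itself makes IGF1 and IGF2, and the endometrial supply of both is part of the exchange between mother and conceptus.

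The comparison across the 4 diets asked whether fiber, NCG or both changed this local system. No member passed the thresholds of the study (adjusted p under 0.05 and an absolute log2 fold change above 1) in any contrast, by the quasi-likelihood test of edgeR adjusted after Benjamini and Hochberg. The receptor, IGF1R, was the only member higher in all 3 L − N libraries than in every one of the other 9 libraries. Of the genes tested, 5.28% had this pattern. IGF1R was 1.67-fold lower in H + N than in L − N, past the adjusted p alone. IGFBP7, the most abundant binding protein, was 1.60-fold lower in H − N than in L − N, also past the adjusted p alone. IGF1 had a mean 7.73-fold higher in H + N than in L − N, and this mean rested on 1 library. Fold changes below are log2 values from the fit, with the standard error (SE) and a 95% interval, and CPM are counts scaled to the TMM-corrected library size, given as mean ± SD.

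Levels of the members can be set side by side only per transcript length, for which the deposited FPKM were used. IGFBP7, which binds the IGFs weakly and also binds collagen and other matrix proteins, had the highest level, with a median of 347 FPKM and a range from 239.7 to 488 FPKM. IGFBP5, a matrix-bound form, followed with a median of 182 FPKM. IGFBP4, a form that mostly inhibits IGF action, had a median of 53.5 FPKM, IGFBP2 of 42.5 FPKM, IGFBP3 of 42.1 FPKM and IGFBP6, which prefers IGF2, of 19.9 FPKM. The ligands and the receptor were lower, with medians of 15.1 FPKM for IGF2, 12.9 FPKM for IGF1R and 2.82 FPKM for IGF1. Among neighbors in this order, the ranges over the 12 libraries did not overlap for IGFBP5 and IGFBP4 alone. IGFBP7 was above IGFBP5 in 11 of 12 libraries, and IGF2 above IGF1R in 7 of 12. The model lengths behind FPKM ran from 780 to 1513 bases for the binding proteins and from 7326 to 12357 bases for the ligands and the receptor. The length is a multiple of 3 for IGFBP3, IGFBP4 and the undetected IGFBP1, and also for IGF2 and IGF1R. The part of these lengths in the order was not tested.

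**Figure D1:**
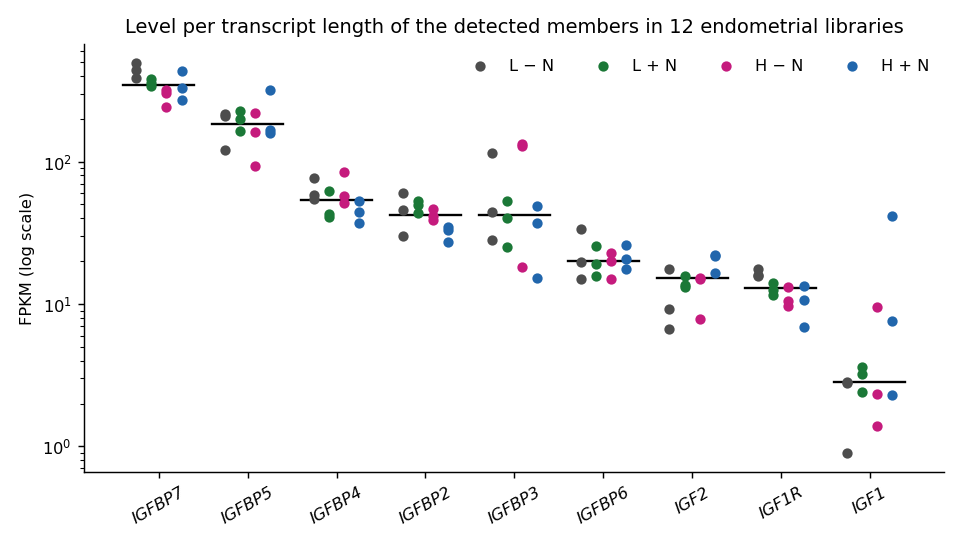
FPKM (log scale) of the 9 detected members in each of the 12 libraries, ordered by the median, which the horizontal line marks. Colors give the diet, and IGFBP7 and IGFBP5 lie above the other binding proteins in all 12 libraries.

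IGFBP7 made up 37.9% to 62.3% of the summed FPKM of the 6 detected binding proteins, with a median of 49.9%. IGFBP5 made up 15.3% to 44.3%. The library with the lowest share of IGFBP7 and the highest of IGFBP5 was the same, H + N replicate 3. IGF2 exceeded IGF1 by a median ratio of 4.25 in FPKM. The ratio was below 1 in H − N replicate 3, at 0.813, and in H + N replicate 3, at 0.532, and above it in the other 10 libraries.

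IGFBP1, a binding protein that human decidua secretes in abundance, had 0 counts in all 12 libraries. A count of 0 allows up to 3 counts per library, which is 0.146 to 0.208 CPM, and this limit covers counting error only. In the table, 2270 genes (11.0%) were at 0 in every library, and insulin (INS) and growth hormone (GH1) were among them. IGFBP1 lies on chromosome 18 at 50018487 to 50022799 (Sscrofa11.1, minus strand), 9061 bases from IGFBP3 at 50002921 to 50009425 on the plus strand, and IGFBP3 was read in every library. IGFBP2 (chromosome 15, 118822092 to 118850985, plus strand) and IGFBP5 (118861816 to 118877787, minus strand) are neighbors of the same kind, 10830 bases apart.

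IGF1 (chromosome 5, 81762027 to 81909253) was measured at 10.9, 36.2 and 35.4 CPM in the L − N libraries and at 40.7, 28.1 and 36.8 CPM with NCG (L + N). On high fiber it was at 16.1, 28.0 and 121 CPM without NCG (H − N) and at 91.0, 26.6 and 520.1 CPM with it (H + N). The 4 groups overlapped, and 1 of 3 H − N libraries and 2 of 3 H + N libraries lay above every low-fiber library. L − N averaged 27.5 ± 14.4 CPM, against 35.2 ± 6.48 for L + N, 55.1 ± 57.6 for H − N and 213 ± 268 for H + N (n = 3 each). The spread within groups (a log2 SD of 1.41) was wider than for 98.8% of the genes tested. For H + N against L − N the log2 fold change was 2.95 (SE 1.01, interval 0.73 to 5.17, adjusted p = 0.0886 with edgeR). Without H + N replicate 3 the value was 1.09 and without H + N replicate 2 it was 3.46, with adjusted p = 0.0449 in edgeR. Over all alternatives the adjusted p of edgeR and DESeq2 ran from 0.0295 to 0.429, with DESeq2 on all 12 libraries at the low end. Long non-coding RNAs, 2 in number, overlap IGF1. For fiber (DF, the mean of both high-fiber groups minus that of both low-fiber groups) the value was 1.80 (SE 0.69, adjusted p = 0.185 with edgeR). Without the 2 libraries highest in IGF1 it was 0.21. Both were picked by their IGF1 and came from high-fiber diets, so a lower value followed from the choice.

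The libraries with the most IGF1, H + N replicate 3 and H − N replicate 3, also had the highest sums of the stromal marker list. The summed FPKM of the 8 stromal markers was 12992 and 13034 there and 7171 to 12305 in the other 10. L + N replicate 3 came next with 12305 and had 36.8 CPM of IGF1. Of the 8 markers, the 3 collagen genes COL1A1, COL1A2 and COL3A1 were highest in 1 of these 2 libraries, and the other 5 were highest elsewhere. None of the 8 markers was at 0. The part of stroma in the IGF1 values was not tested.

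IGF2 (chromosome 2, 1469183 to 1496417), an imprinted growth factor of fetal and uterine growth, was at 129, 72.2 and 52.4 CPM in the L − N libraries, and L + N had 89.7, 95.6 and 110.3 CPM. H − N had 106, 111 and 60.4 CPM, and H + N had 159.7, 116 and 169 CPM. In H + N 2 of 3 libraries were above all libraries of the other diets, and L − N replicate 1 was above H + N replicate 2. H + N exceeded L − N by 0.81 (SE 0.31, interval 0.12 to 1.50, adjusted p = 0.121 with edgeR). Without L − N replicate 1 the value was 1.25, with adjusted p = 0.0185 in edgeR. That library also had 2759 FPKM over the 6 smooth muscle markers, against 395 to 953 FPKM in the other 11, and the part of this in the IGF2 value was not tested. For NCG (the mean of both NCG groups minus that of the groups without it) the value was 0.45 (SE 0.22, adjusted p = 0.240 with edgeR).

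IGF1R (chromosome 1, 137383623 to 137691038) was at 219, 209 and 207 CPM in the control, L − N. L + N had 163, 139 and 150.1 CPM, H − N had 157, 129 and 127 CPM, and H + N had 132, 158 and 89.2 CPM. The lowest L − N library was above the highest of the other 9, a pattern that 5.28% of the genes tested had. The control averaged 212 ± 6.83 CPM, against 151 ± 11.7 for L + N, 138 ± 17.0 for H − N and 126 ± 34.8 for H + N (n = 3 each). The other 3 groups overlapped with each other. The fit of H + N against L − N gave -0.74 (SE 0.18, interval -1.14 to -0.35, adjusted p = 0.0333 with edgeR). This difference was past the adjusted p alone and not past the fold threshold, and 3.66% of all genes were past the adjusted p in this direction. Leaving out 1 library at a time gave -0.94 to -0.54, with an adjusted p under 0.05 in 7 of 12 fits and up to 0.107. In edgeR on the 2 groups alone the adjusted p was 0.114, and without the 2 libraries highest in IGF1 it was 0.0530. In DESeq2 on all libraries it was -0.76 with adjusted p = 0.00216.

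H − N against L − N gave -0.62 for IGF1R (SE 0.18, interval -1.01 to -0.23, adjusted p = 0.0680 with edgeR). DESeq2 on all libraries gave adjusted p = 0.0143, and over all alternatives of edgeR and DESeq2 it ran from 0.00126 to 0.176. L + N against L − N gave -0.49 (SE 0.18, interval -0.88 to -0.10, adjusted p = 0.105 with edgeR). Here DESeq2 on all libraries gave adjusted p = 0.0550, and over all alternatives of edgeR and DESeq2 it ran from 0.000359 to 0.282. The comparisons share the L − N libraries, so the 3 fold changes against L − N are not independent of each other. Fiber (DF) gave -0.44 for IGF1R (SE 0.13, adjusted p = 0.114 with edgeR and 0.0269 with DESeq2). NCG gave -0.31 (SE 0.13, adjusted p = 0.169 with edgeR and 0.121 with DESeq2). The interaction of fiber and NCG was 0.37 (SE 0.25, interval -0.19 to 0.92, adjusted p = 0.559 with edgeR). The F-test over the 4 groups gave adjusted p = 0.0651 with edgeR and 0.00382 with DESeq2. A gene on the other strand, PGPEP1L, overlaps IGF1R by 843 bases and had 20 to 51 counts per library.

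**Figure D2:**
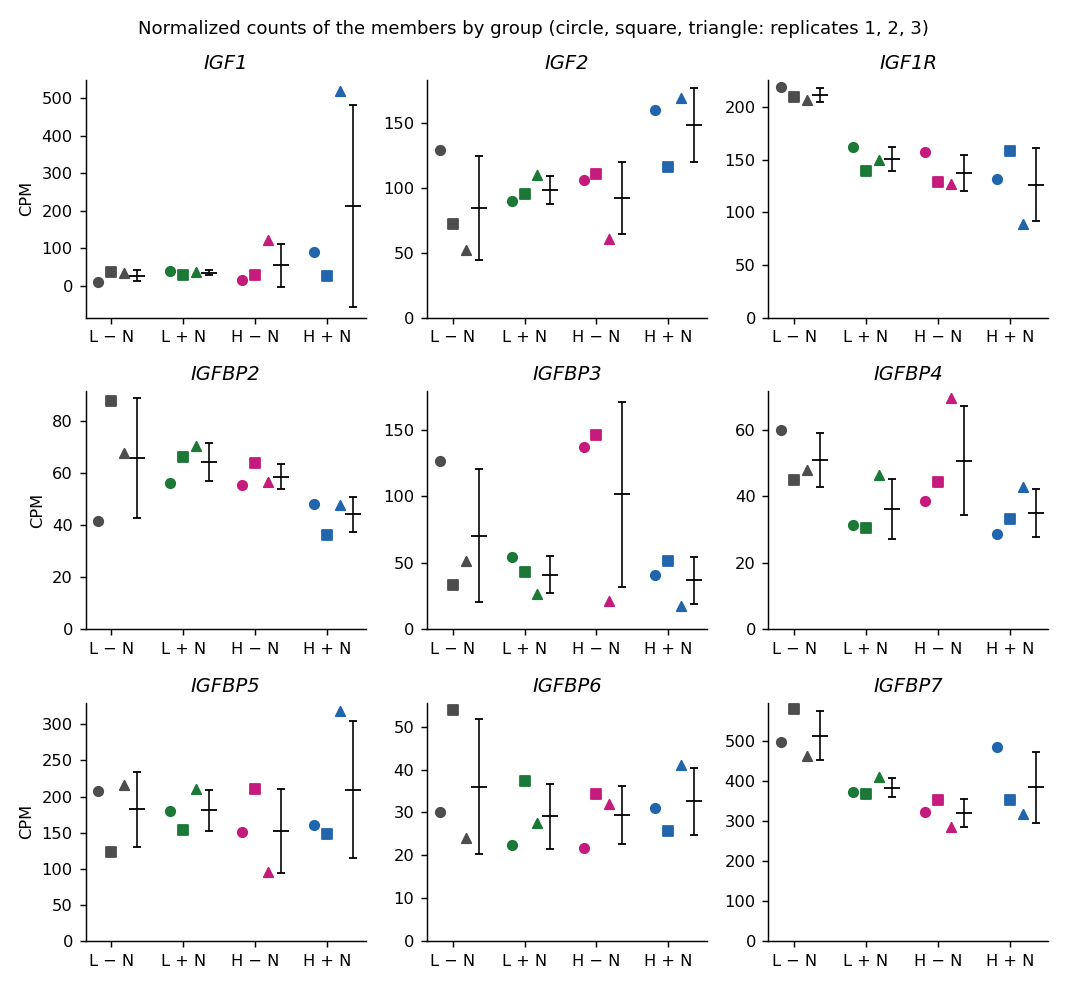
CPM of the 9 detected members in each library by diet, with circle, square and triangle for replicates 1, 2 and 3, and bars for the mean and SD (n = 3). IGF1R in L − N lies above all other libraries, while the bar of IGF1 in H + N reaches below 0 because 1 library of 520.1 CPM sets it.

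IGFBP7 (chromosome 8, 56283089 to 56357822) was at 498, 580.3 and 462 CPM in the control. L + N had 372, 368 and 410.2 CPM, H − N had 324, 353 and 284 CPM, and H + N had 485, 352 and 316 CPM. All libraries of L + N and of H − N were below all of L − N, as for 17.2% and 12.7% of the genes tested, and H + N replicate 1 reached into the L − N range. The control averaged 513 ± 60.7 CPM, against 383 ± 23.5 for L + N, 320.0 ± 34.4 for H − N and 384 ± 88.9 for H + N (n = 3 each). H − N against L − N gave -0.68 (SE 0.17, interval -1.05 to -0.32, adjusted p = 0.0413 with edgeR), past the adjusted p alone, as were 3.71% of genes in this direction. Leaving out 1 library at a time gave -0.76 to -0.58, with an adjusted p under 0.05 in 4 of 12 fits and up to 0.126. The adjusted p was 0.106 in edgeR on the 2 groups alone and 0.00196 in DESeq2 on all libraries. L + N against L − N gave -0.42 (SE 0.17, adjusted p = 0.125 with edgeR) and H + N against L − N -0.42 (SE 0.17, adjusted p = 0.129 with edgeR). IGFBP7 was the only member with an unadjusted p under 0.05 for the interaction, at 0.69 (SE 0.23, interval 0.17 to 1.20, unadjusted p = 0.0132 and adjusted p = 0.297 in edgeR). POLR2B on the other strand overlaps IGFBP7 by 279 bases and had 3875 to 6423 counts, and the counting strand is not given in the sources used here.

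Markers of other cell types also stood apart in L − N for some lists, which were not tested. The 8 epithelial markers summed to 445 to 703 FPKM in the control and to 565 to 657 FPKM for H + N. They summed to 735 to 754 FPKM for L + N and 727 to 987 FPKM for H − N, above every control library. Each epithelial marker alone overlapped between L − N and the other 9 libraries. The 6 smooth muscle markers summed to 860.1 to 2759 FPKM in the control, against 488 to 603 for L + N, 395 to 788 for H − N and 701 to 721 for H + N. ACTA2 and TAGLN were higher in every L − N library than in all others, as were the endothelial marker PECAM1 and VIM of the stromal list. The remaining smooth muscle and endothelial markers each overlapped between L − N and the other diets. HOXA10 of the stromal list was lower in every L − N library than in all others, and the other 6 stromal markers overlapped. The stromal list summed to 7171 to 9380 FPKM in the control, against 7803 to 12305 for L + N, 8707 to 13034 for H − N and 9211 to 12992 for H + N. The 6 endothelial markers summed to 224 to 337 FPKM in the control and to 177 to 215 FPKM for L + N, below every control library. For H − N they summed to 225 to 242 FPKM and for H + N to 207 to 259 FPKM, and both overlapped with the control. The 6 leukocyte markers summed to 155, 479 and 441 FPKM in the L − N libraries and to 109 to 253 FPKM in the other 9, so that 2 of 3 L − N libraries lay above all others. The 6 placental markers summed to 15.0 to 18.99 FPKM in the control and to 20.5 to 36.4 FPKM in the other 9 libraries, of which GATA2 alone had 11.4 to 31.7 FPKM over the 12. The 6 markers of dividing cells summed to less in the control, with 11.2 to 30.3 FPKM in L − N and 36.2 to 84.9 FPKM in the other diets. MKI67, TOP2A and BUB1 were each lower in every L − N library than in all others, and CDK1, CCNB1 and AURKA overlapped. Of these lists, CYP19A1 of the placental list was the only marker at 0 in all libraries. Their part in the values of IGF1R and IGFBP7 was not tested.

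IGFBP3, the main carrier of IGFs in serum, varied most among the binding proteins. It was at 127, 33.1 and 51.5 CPM in the control, and L + N had 54.4, 42.9 and 26.4 CPM. H − N had 137, 146 and 21.2 CPM, and H + N had 41.0, 51.7 and 17.5 CPM. The 3 libraries with the highest values, 127 to 146 CPM, all came from diets without NCG, and the other 3 libraries without NCG lay within the range of the NCG groups. NCG gave -1.12 for IGFBP3 (SE 0.48, interval -2.17 to -0.07, adjusted p = 0.185 with edgeR). The spread within groups was a log2 SD of 1.05, wider than for 96.7% of genes. Of all 12 libraries, H + N replicate 3 and H − N replicate 3 had the lowest IGFBP3 and the highest IGF1, and L − N replicate 1 had the lowest IGF1 and ranked 3 of 12 for IGFBP3. This was noticed after the values were seen and was not tested.

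**Figure D3:**
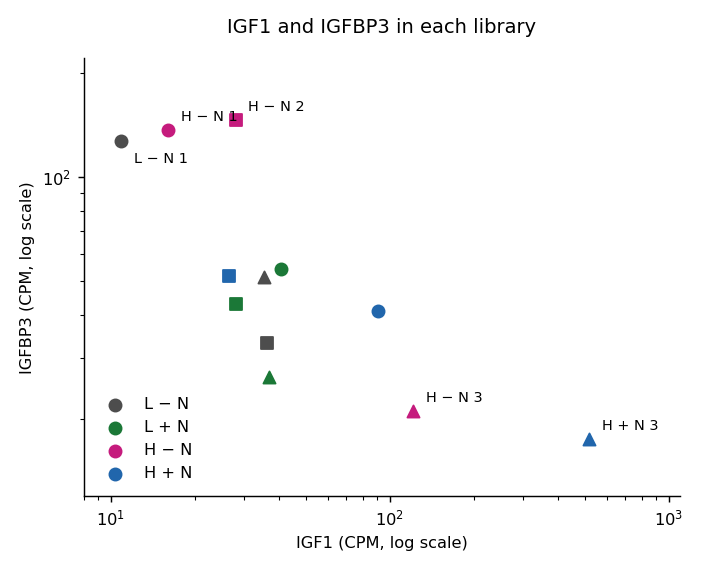
IGFBP3 against IGF1 in CPM, both on log scales, for each of the 12 libraries, with color for the diet and circle, square and triangle for replicates 1, 2 and 3. H + N replicate 3 and H − N replicate 3 lie at the lower right, and 3 libraries from diets without NCG lie at the upper left.

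IGFBP4 was at 60.0, 44.8 and 48.0 CPM in the control, and L + N had 31.3, 30.6 and 46.4 CPM. H − N had 38.4, 44.2 and 69.5 CPM, and H + N had 28.8, 33.1 and 42.9 CPM. All H + N libraries were below all L − N libraries, as for 12.7% of the genes tested, while the other diets overlapped with L − N. For IGFBP4, H + N against L − N gave -0.54 (SE 0.25, adjusted p = 0.184 with edgeR), and NCG gave -0.52 (SE 0.18, interval -0.90 to -0.13, adjusted p = 0.104 with edgeR). DESeq2 gave adjusted p = 0.0472 for IGFBP4 and NCG.

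IGFBP2, which is made by epithelium and stroma of many tissues, was at 41.7, 87.8 and 67.5 CPM in the control, and L + N had 56.2, 66.1 and 70.4 CPM. H − N had 55.3, 64.0 and 56.6 CPM, and H + N had 48.1, 36.4 and 47.8 CPM. Of the 4 lowest values, 3 were those of H + N and 1 was that of L − N replicate 1. For IGFBP2, H + N against L − N gave -0.57 (SE 0.23, interval -1.07 to -0.08, adjusted p = 0.128 with edgeR). Without L − N replicate 1 it was -0.82, with adjusted p = 0.0147 in edgeR.

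IGFBP5 was at 95.5 to 319 CPM and IGFBP6 at 21.8 to 53.9 CPM over the 12 libraries, and their groups overlapped in every comparison. IGFBP5 was at 0.20 (interval -0.56 to 0.96) and IGFBP6 at -0.15 (interval -0.83 to 0.54) in log2 for H + N against L − N. H + N replicate 3, the library with the most IGF1, also had the most IGFBP5. For both genes the adjusted p of edgeR was above 0.05 in all contrasts.

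Counted over the 9 tested members, H + N against L − N had 0 calls, where 3.58% of all genes passed both thresholds with edgeR. At an unadjusted p under 0.05 there were 5 members (IGF1 and IGF2 higher, IGF1R, IGFBP2 and IGFBP7 lower), where 27.5% of all genes did so. DESeq2 on all libraries called IGF1, where 5.43% of 18404 genes were called. L + N against L − N had 0 calls against 3.99% of genes with edgeR, and 2 members at an unadjusted p under 0.05 against 27.8%. With DESeq2 it had 0 calls against 4.88% of genes. H − N against L − N had 0 calls against 2.91% with edgeR, and 2 members at an unadjusted p under 0.05 against 24.4%. With DESeq2 it had 0 calls against 5.1% of genes.

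Fiber had 0 calls against 0.0261% of genes with edgeR and 0 against 1.66% with DESeq2. It had 4 members at an unadjusted p under 0.05 in edgeR against 19.5%. NCG had 0 calls against 1.8% with edgeR and 0 against 1.98% with DESeq2. It had 3 members at an unadjusted p under 0.05 in edgeR against 23.6%. The interaction had 0 calls among the members, against 0% of genes with edgeR, and 0 against 1.01% with DESeq2. It had 1 member at an unadjusted p under 0.05 in edgeR against 12.8%. The F-test over the 4 groups had 0 members with edgeR, where 6.96% of genes passed an adjusted p of 0.05, and 3 members (IGF1, IGF1R and IGFBP7) at an unadjusted p under 0.05 against 27.3%. DESeq2 called these 3 members, where it called 17.9% of 18404 genes, with IGF1 at adjusted p = 0.0499.

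The median log2 fold change of the members was -0.42 for H + N against L − N, with 3 higher and 6 lower, where the median of all genes was 0.02. It was -0.31 for L + N (2 higher and 7 lower, all genes -0.02) and -0.16 for H − N (3 higher and 6 lower, all genes 0.03).

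**Figure D4:**
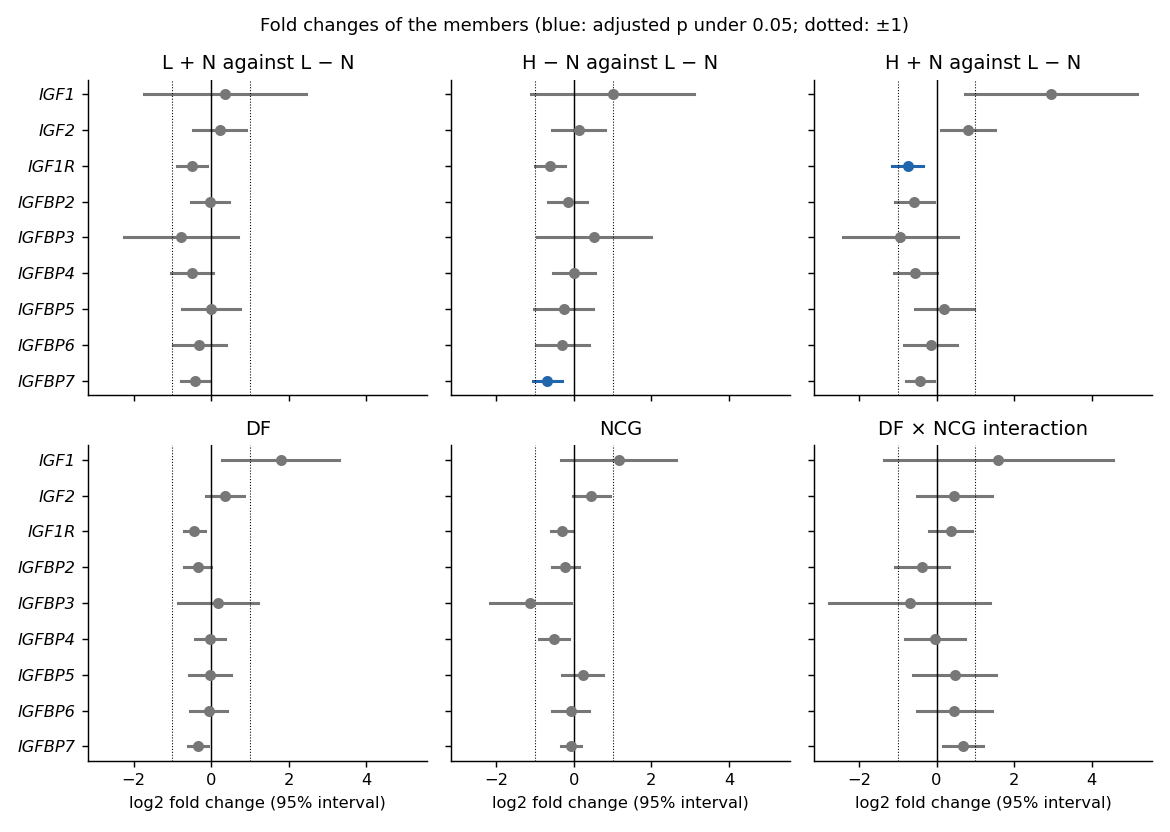
Log2 fold change (x axis) with its 95% interval for the 9 tested members in 6 contrasts, with blue for an adjusted p under 0.05 and dotted lines at the fold threshold. The blue points are IGF1R in H + N against L − N and IGFBP7 in H − N against L − N, both inside the dotted lines.

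The other genes of the pathway were taken from 4 lists. Among IGF and insulin receptors and IGF carriers, 5 of 6 genes were tested and 0 were called in the 7 comparisons with edgeR. IGF2R, which clears IGF2 from the cell surface, was past the adjusted p alone and is named for that after its values were seen. It was at 124, 199 and 175 CPM in L − N and at 89.1 to 120.0 CPM in the other 9 libraries. L − N lay above all others in this way for 5.28% of the genes tested. Its log2 fold change was -0.67 for H + N against L − N (SE 0.17, adjusted p = 0.0381 with edgeR) and -0.62 for L + N against L − N (SE 0.17, adjusted p = 0.0427 with edgeR). Of the mRNA binding proteins that bind IGF2 transcripts, 2 of 3 genes were tested and 0 were called.

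Among IGFBP proteases and their inhibitors, 11 genes were tested. For H + N against L − N, 1 was called, as lower, where 3.58% of all genes were called. HTRA1, a serine protease that cuts IGFBP5, was at 651, 1111 and 999.9 CPM in L − N and at 405, 465 and 359 CPM in H + N. In the other diets it was at 355 to 636 CPM, below every L − N library, and 5.28% of the genes tested had L − N above all others. HTRA1 gave -1.17 for H + N against L − N (SE 0.24, adjusted p = 0.0225 with edgeR). This call was lost without L − N replicate 2 or 3 or H + N replicate 1 or 3, with an adjusted p of up to 0.0915 in edgeR. Against L − N, edgeR also gave -0.91 for L + N (adjusted p = 0.0350) and -0.97 for H − N (adjusted p = 0.0413), both past the adjusted p alone. Without 1 library, this was lost in 5 of 12 fits for L + N and in 8 of 12 for H − N. In the F-test over the 4 groups HTRA1 had adjusted p = 0.0329 with edgeR, where 6.96% of genes passed.

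The median of the list was -0.19 for H + N against L − N, with 5 genes higher and 6 lower, where all genes had 0.02. PAPPA, the protease of IGFBP4, was at 22.6 to 43.6 CPM in the control, against 50.6 to 100.4 for L + N, 15.8 to 56.3 for H − N and 28.1 to 60.4 for H + N. It was named for its role after its values were seen, and it was not called.

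Among adaptors and kinases below IGF1R, 31 genes were tested and 0 passed both thresholds in any contrast with edgeR. At the adjusted p alone there were 5 genes in H + N against L − N (2 higher and 3 lower, 7.97% of all genes), 7 in L + N (9.6% of all genes), 2 in H − N (5.27%) and 5 for NCG (7.27%), and with the F-test 2 genes passed (6.96% of all genes). These 2 were FOXO1, a transcription factor that Akt keeps out of the nucleus, and PIK3R1, the regulatory subunit of PI3K. FOXO1 was at 139, 149 and 146 CPM in L − N and at 90.5 to 109.5 CPM in the other 9 libraries, a separation that 5.28% of the genes tested had. Against L − N, edgeR gave -0.66 in L + N (adjusted p = 0.00818), -0.57 in H − N (adjusted p = 0.0194) and -0.49 in H + N (adjusted p = 0.0232). For L + N the adjusted p stayed under 0.05 in all 12 fits without 1 library. For H − N and H + N it rose above 0.05 in 3 of 12, without L − N replicate 2 or 3 or replicate 1 of the diet compared. PIK3R1 was at 178 to 229 CPM in L − N and at 245 to 436 CPM in the other diets. Of the genes tested, 4.28% had L − N below all others. For PIK3R1 against L − N, edgeR gave 0.89 in H + N (adjusted p = 0.0262), 0.88 in H − N (adjusted p = 0.0322) and 0.45 in L + N (adjusted p = 0.159). Leaving out 1 library raised the adjusted p of PIK3R1 above 0.05 in 4 of 12 fits for H + N (L − N replicates 2 and 3, H + N replicates 1 and 3). For H − N it did so in 6 of 12 fits.

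**Figure D5:**
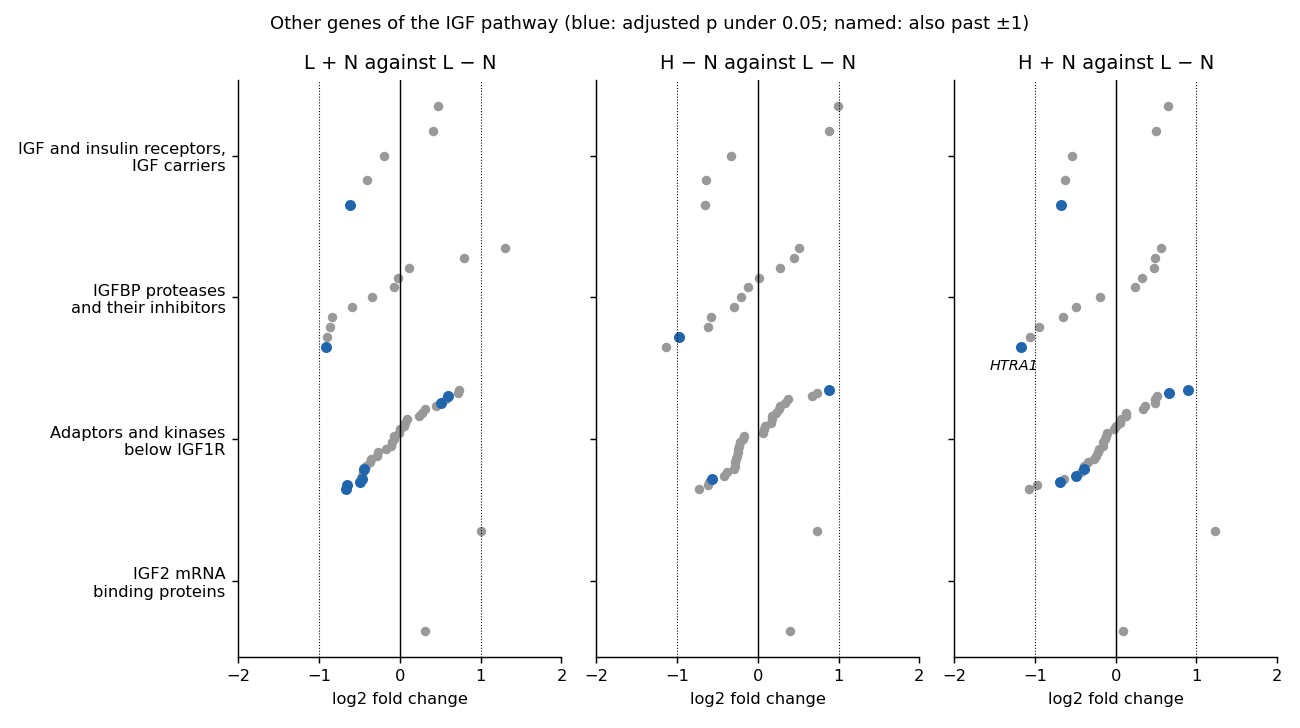
Log2 fold change (x axis) of the tested genes of 4 pathway lists against L − N, sorted by size within each list, with blue for an adjusted p under 0.05 and names for genes also past the dotted fold threshold. The named gene is HTRA1, in H + N.

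The genes whose log2 CPM were most like that of IGF1R over the 12 libraries, of 13589 compared, were YPEL3 (r = 0.982, rho = 0.965), FBXO32 (r = 0.968, rho = 0.937) and USP20 (r = 0.959, rho = 0.951). FBXO32, a subunit of a ubiquitin ligase known from muscle, had a mean of 61.1 CPM in L − N and 22.9 CPM in H − N. Those most like IGFBP7 were CACNA1H (r = 0.911, rho = 0.909), PFN2 (r = 0.891, rho = 0.916) and NOX4 (r = 0.891, rho = 0.930). CACNA1H had a mean of 96.7 CPM in L − N and 39.5 CPM in H − N. The points share diets and library scaling, so these values are descriptions across 12 libraries. The deposited annotation places IGF1, IGF2 and IGF1R in the PI3K-Akt pathway and IGF1 and IGFBP3 in the p53 pathway, and gives the term IGF binding to 7 of the 10 members.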

How the data were processed

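Endometrial poly(A) RNA was paired-end sequenced in 12 libraries, 3 per diet. Samples were grouped by titles, in which H or L stands for fiber and N for NCG. Per the submitters' processing notes, fastp 0.22.0, HISAT2 2.1.0 and HTSeq 0.9.1 were used with Sscrofa11.1. The authors deposited raw read counts and FPKM per gene, and the FPKM served only to compare levels between genes. The counting strand is not given in the sources used here.

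The members, the lists of pathway and marker genes and the alternatives were chosen with earlier results of these data known. Counts were filtered with filterByExpr, scaled by TMM and fitted with 1 mean per group over all 12 libraries in edgeR 4.0.16 (R 4.3.3, limma 3.58.1), with a quasi-likelihood test and Benjamini-Hochberg adjustment over 15351 genes. Log2 values used a prior count of 2. DESeq2 1.42.0, RLE scaling, no filter, fits to pairs of groups, leaving out each library and a replicate block were alternatives. The script was tested on simulated data. The chi-square per gene between replicates was 22.8 to 98.6, and the biological coefficient of variation was 0.269, so replicate libraries differed by more than counting error.

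All members were named. From each pathway list at most 3 genes called in any of the 7 comparisons were named, and for the 2 members with the smallest p of the F-test the 3 genes of at least 1 mean CPM with the highest correlation. Of the pathway lists, 2 genes are not reported here.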

Additional observations from a re-analysis of the deposited data

How the results depend on the processing

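The number of members called for H + N against L − N was 0. It became 1 (IGF1R) at the adjusted p alone, a setting chosen after seeing the data, where 7.97% of all genes passed. It became 1 (IGF1) with DESeq2 on all libraries, where 5.43% of all genes were called. Leaving out 1 library gave 0 to 1, while 0.00642% to 6.09% of all genes were called. IGF2 was called without L − N replicate 1 (6.09% of all genes) and IGF1 without H + N replicate 2 (3.67%). For H − N against L − N the number of members became 1 (IGFBP7) at the adjusted p alone, where 5.27% of all genes passed. For the F-test it became 3 with DESeq2 (17.9% of all genes), 0 to 2 without 1 library, where 4 to 1732 of all genes passed (IGF2 and IGFBP2 without L − N replicate 1, IGFBP7 without H + N replicate 1, IGF1R without H + N replicate 2 or 3) and 1 (IGF1R) without both libraries highest in IGF1, also chosen after seeing the data (5.69% of all genes). The causes were not tested. Of 54 log2 fold changes of members, 34 kept their sign under every alternative and 20 changed it, all of them with an adjusted p above 0.05.

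Their ranges without 1 library follow. IGF1 was at -0.27 to 2.92 for the interaction, -0.32 to 1.44 for H − N and -0.023 to 0.61 for L + N. It was at -0.32 for H − N without both libraries highest in IGF1, which were picked by these values. IGF2 was at -0.12 to 0.57 for H − N and -0.029 to 0.66 for L + N, and IGFBP2 at -0.40 to 0.10 and -0.27 to 0.23. IGFBP4 was at -0.17 to 0.065 for fiber, -0.21 to 0.26 for the interaction and -0.30 to 0.16 for H − N. IGFBP5 was at -0.24 to 0.10 for fiber, -0.24 to 0.38 for H + N and -0.23 to 0.13 for L + N. IGFBP6 was at -0.18 to 0.14 for fiber, -0.19 to 0.13 for NCG, -0.37 to 0.27 for H + N, -0.52 to 0.12 for H − N and -0.53 to 0.10 for L + N.

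Replicate numbers link no sows in the labels. Over 18 pairs of libraries with the same number, deviations from the group means correlated at r = -0.32 to 0.28, 3 of them over 0.1, and 0 of 12 libraries were closest to their own number. With the number as a block, 0 members were called, IGF1R in H + N against L − N was at -0.76 (edgeR adjusted p = 0.0416) and IGFBP7 in H − N against L − N at -0.68 (edgeR adjusted p = 0.0612). Without both libraries highest in IGF1, IGFBP5 was at -0.12 for NCG (0.22 with all libraries), -0.22 for the interaction (0.46 with all) and -0.24 in H + N, and IGFBP4 for the interaction at 0.082. The block also moved IGFBP4 for the interaction to 0.026 and IGFBP5 in L + N to 0.00025.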
